A study of Mus musculus with 12 samples.

Results

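The cytosolic ribosomal protein genes encode the proteins that, with ribosomal RNA, make up the large and the small subunit of the ribosome outside mitochondria. Genes were taken by symbol: Rpl or Rps followed by a digit, or Rplp0, Rplp1, Rplp2 or Rpsa, leaving out the Rps6k kinases and symbols marked as pseudogenes. This gave 93 of the 55401 genes counted, 55 with large subunit symbols and 38 with small subunit symbols. Of the 93, 86 are annotated as protein-coding and 7 as pseudogenes in spite of their symbols. One protein-coding symbol, Rps19bp1, fits the naming rule but encodes a protein that binds Rps19 and is not a ribosomal protein.

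The small subunit decodes the mRNA and the large subunit forms the peptide bonds. Each ribosome holds a single copy of most of these proteins, and their genes are expressed in nearly all cells. Their mRNAs typically begin with a run of pyrimidines, the terminal oligopyrimidine or TOP motif, through which mTOR signalling and the protein Larp1 control their translation. Astrocytes make new protein both in the cell body and in fine processes near synapses and vessels.

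RNA was sequenced from cells sorted from the cortex and the hippocampus of CD51-Flp; Rosa-CAG-FSF-tdTomato mice, in which Flp recombinase driven from CD51 (integrin alpha-v) removes a stop cassette in front of tdTomato. All sorted cells carried GFP; the sources used here do not state what drives it. Cells labelled CD51+ had tdTomato and GFP, and cells labelled CD51- had GFP without tdTomato. There were 3 libraries in each of 4 groups (cortex CD51+, cortex CD51-, hippocampus CD51+, hippocampus CD51-), and no age, sex or number of mice is stated in the labels. Nothing in the labels says that the 3 libraries came from separate animals, so p-values measure only the spread between these libraries. One point bears on every direction given here. Count columns named with G belong to samples titled CD51+, and those named with GT to samples titled CD51-. Should G and GT stand for green alone and green with tomato, the classes would be swapped and all CD51 differences would turn their sign. The mRNA of CD51 itself, Itgav, did not settle it, with a log2 fold change (CD51+ over CD51-) of 0.91 in cortex and -0.04 in hippocampus (edgeR adjusted p = 0.269 and 0.984).

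The libraries held 4351897 to 12847183 counts, and the share of mitochondrially encoded genes moved with the label. It was 36.51% to 71.13% in cortex CD51+ against 22.52% to 38.64% in cortex CD51-, and 49.87% to 53.28% in hippocampus CD51+ against 20.16% to 29.4% in hippocampus CD51-, where the groups did not overlap. The highest share was in cortex CD51+ replicate 3. Values are CPM, counts brought to a common library size, with library sizes scaled by the TMM factors of edgeR. The labels call all groups astrocytes. The summed CPM of 17 astrocyte markers, all of them detected, was 49800 to 81300 in the 6 CD51+ libraries and 5711 to 18150 in the 6 CD51- libraries. The summed markers of microglia, of oligodendrocytes and of other leukocytes went the opposite way. The sum of 14 microglia markers was 207.4 to 1719 in CD51+ and 5625 to 12060 in CD51- libraries, and that of 12 oligodendrocyte markers was 1257 to 5014 against 6918 to 64020. All of these markers were detected. Taken singly, 11 of the 12 oligodendrocyte markers had a negative log2 fold change (CD51+ over CD51-) in cortex and 1 a positive one. In hippocampus 8 were negative and 4 positive. The sum of 9 neuron markers, all detected, overlapped in cortex (129.9 to 423.5 in CD51+, 137 to 290.6 in CD51-), and in hippocampus it was higher in CD51+ (189.6 to 390) than in CD51- (25.9 to 134.9). Pericyte, endothelium and oligodendrocyte precursor sums were at most 230.8 in any library. The sum of 9 markers of other leukocytes was 0.1679 to 31.05 in CD51+ and 477.1 to 627 in CD51- libraries, with Cd3e, Ly6g and Nkg7 among those at 0 in all 12. These differences and that in mitochondrial share lie along the same axis as every CD51 comparison below, and their part in the results was not tested. In pooled cells of this kind, a change in the mix of cells and a change in RNA per cell cannot be told apart.

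Some members share almost all of their coding sequence with another gene, which bears on what a count can say, so these sequences come first. In each pair a stretch of coding sequence is given 5′ to 3′ from the GENCODE vM21 transcripts, with capitals where gene and copy differ. Rpl37 (chromosome 15) and Rpl37rt (chromosome 5) matched at 99.7% of 291 coding bases. Bases 160 to 249 hold their only difference:
Rpl37: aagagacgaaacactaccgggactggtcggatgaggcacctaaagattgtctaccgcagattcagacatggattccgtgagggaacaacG
Rpl37rt: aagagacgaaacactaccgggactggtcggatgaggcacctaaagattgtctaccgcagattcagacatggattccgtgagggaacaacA

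Rps27 (chromosome 3) and Rps27rt (chromosome 9) were identical over all 252 coding bases, of which the first 90 are shown once for both:
Rps27 and Rps27rt: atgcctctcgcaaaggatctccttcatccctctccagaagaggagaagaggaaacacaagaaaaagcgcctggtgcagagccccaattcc

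Rps3a1 (chromosome 3) and Rps3a3 (chromosome 13) matched at 98.9% of 792 coding bases, and bases 171 to 260 hold 2 of the 9 differences:
Rps3a1: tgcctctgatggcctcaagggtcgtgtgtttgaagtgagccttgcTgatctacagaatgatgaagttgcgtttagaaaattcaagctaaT
Rps3a3: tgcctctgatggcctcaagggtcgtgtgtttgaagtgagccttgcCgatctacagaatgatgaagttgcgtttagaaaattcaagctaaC

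The counts of these 3 copies followed those of their partners across libraries. Rpl37rt had between 20.13 and 31.17 counts for every 100 of Rpl37 (median 26.57 over 12 libraries), while Rpl37 itself ranged 9.5-fold. Rps3a3 had 1.0 to 4.82 per 100 counts of Rps3a1, whose counts ranged 43.9-fold, and Rps27rt had 3.12 to 11.9 per 100 of Rps27. Rps3a2, which matched Rps3a1 at 99.5% of its coding bases, did so less closely: it had 0 to 1.61 counts per 100 of Rps3a1, with 63 beside 3921 in cortex CD51- replicate 1 and 19 beside 8779 in replicate 2. Each read pair was counted once, at its primary alignment, so a pair that maps equally well to gene and copy was counted at only one of them, and the counts do not show which gene it came from. The 300 rows with pseudogene symbols behaved alike: 213 had counts, and together they took 3.218 to 4.616 counts for every 100 counts of the members in each library. Of the 86 members that passed the filter on low counts, only 4, Rpl22, Rps21 and Rps27l among them, shared no window of 100 bases with a transcript of another gene. The share of such windows over whole transcripts is another measure than the match of coding bases, and it counts any other gene. It was 8.9% for Rpl37 and 24.5% for Rpl37rt, and 20.4% for Rps27 and 89.5% for Rps27rt. For Rps3a1 and Rps3a3 the shares were 45.3% and 31.6%. Most of these windows were shared with Rps3a2 (42.1% of Rps3a1 and 31.3% of Rps3a3).

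**Figure D1:**
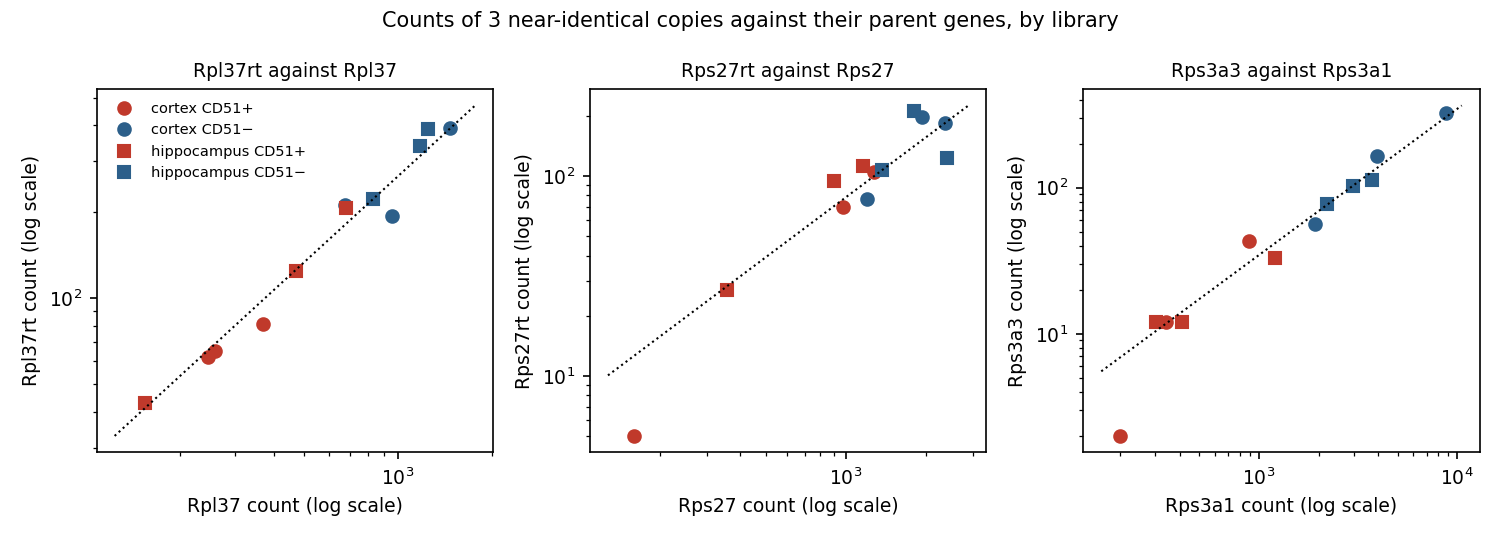
Counts of Rpl37rt, Rps27rt and Rps3a3 (y axes) against those of Rpl37, Rps27 and Rps3a1 (x axes), which nearly match them in coding sequence, both on log scales. Each point is 1 of 12 libraries, circles for cortex and squares for hippocampus, red for CD51+ and blue for CD51-. The dotted line is the median ratio (26.57 per 100 counts for Rpl37rt), and the points of Rpl37rt lie near it in all 4 groups. In cortex CD51+ replicate 3 the other copies lie well below it. Rps27rt was at 3.125 per 100 there (median 7.85) and Rps3a3 at 1.0 (median 3.46).

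Of the 93 members, 4 had no count in any library (Rpl10l, Rpl39l, Rpl3l and Rps12l1), and 80 were counted in all 12. The filter left 86 members, 51 large and 35 small, among 12613 genes. The members that did not pass were the 4 at 0 and Rpl32l, Rps19bp1 and Rps4l. Together the members took 0.09317% to 1.066% of all counts. The 10 most abundant members of a library held 40.58% to 47.23% of its member counts. The single most abundant member held 5.788% (Rpl10 in hippocampus CD51- replicate 3) to 13.83% (Rps3a1 in cortex CD51- replicate 2). The most abundant one was Rpl4, which lines part of the exit tunnel for the growing peptide, in 4 of 12 libraries, and Rps29, a zinc-binding protein of the small subunit head, in 3.

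Both subunits stood lower in the libraries labelled CD51+. Large subunit genes summed to 1916, 2380 and 1490 CPM in cortex CD51+ replicates 1 to 3 and to 4447, 3886 and 4198 CPM in cortex CD51-. The groups did not overlap, with means of 1929 ± 445.1 and 4177 ± 281.1 CPM (SD, n = 3) and a ratio of 2.166. The hippocampus CD51+ libraries gave 1726, 2319 and 3434 CPM, against 3625, 5036 and 3240 CPM for the CD51- libraries there. Here the groups overlapped, because CD51+ replicate 3 lay above CD51- replicate 3, and CD51- was 1.591 times as high on average.

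Small subunit genes summed to 1138, 1369 and 939.6 CPM in cortex CD51+ and to 3052, 3722 and 2855 CPM in cortex CD51-. The hippocampus sums were 1047, 1701 and 1654 CPM for CD51+, against 2618, 3252 and 2119 CPM for CD51-. Neither pair of groups overlapped, and the CD51- mean was 2.794 times as high in cortex and 1.815 times in hippocampus. Small subunit genes held 36.53% to 38.68% of the member CPM in cortex CD51+ and 40.48% to 48.93% in cortex CD51-, without overlap. In hippocampus the shares overlapped, at 32.51% to 42.32% in CD51+ and 39.24% to 41.93% in CD51-. The highest share was in cortex CD51- replicate 2 and the lowest in hippocampus CD51+ replicate 3. A sum over the members was given no test. Cortex CD51+ replicate 3, with the highest mitochondrial share, also had the lowest sum of both subunits, and without it the cortex ratio on the log2 scale was -0.96 for large and -1.36 for small subunit genes, against -1.12 and -1.48 with it.

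**Figure D2:**
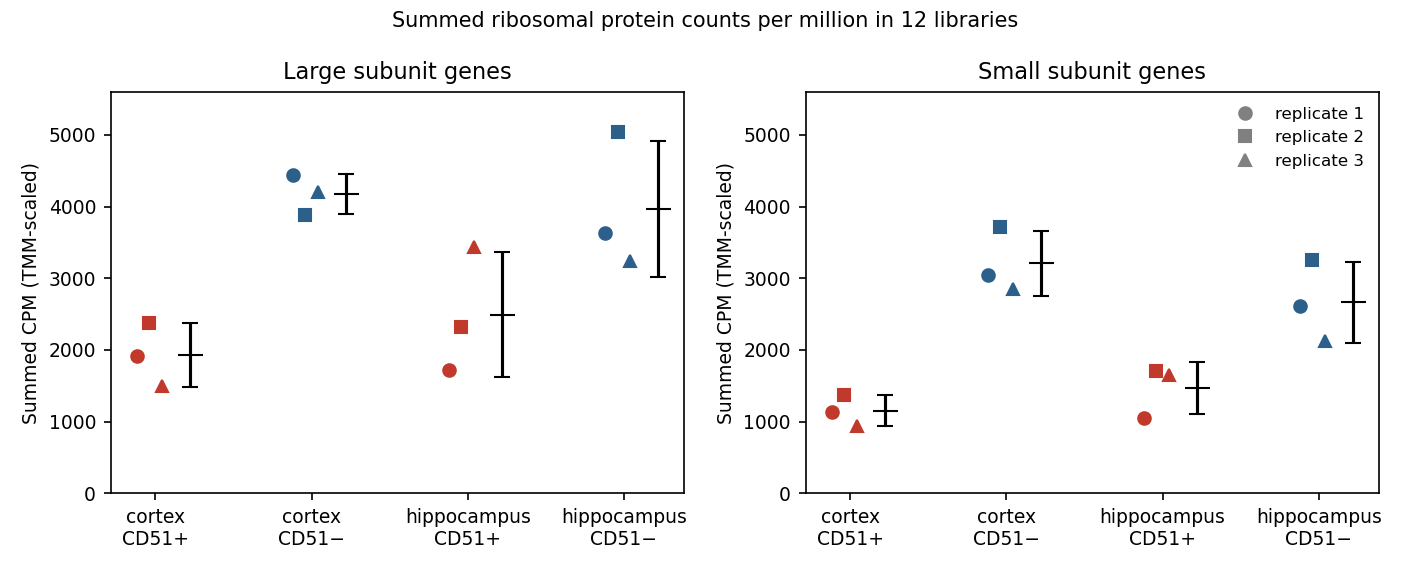
Summed CPM of the large subunit genes (left) and the small subunit genes (right) in each library, by group on the x axis; points are libraries, with the symbol giving the replicate number, and bars are the mean ± SD of 3 libraries. All CD51+ points lie below all CD51- points of the same region except for the large subunit in hippocampus, where 3434 CPM in CD51+ replicate 3 lies above 3240 CPM in CD51- replicate 3.

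Gene by gene most members pointed the same way, while few passed the test. In cortex 78 of 86 tested members had a negative log2 fold change (CD51+ over CD51-), against 50.4% of all tested genes. Their median was -1.23, against -0.03 for all genes. In hippocampus 75 of 86 were negative, against 54.1% of all genes, with a median of -0.79 against -0.22. Averaged over the regions 82 of 86 were negative, against 52.4% of all genes. Both regions were negative for 68 members and both positive for 1, Rps21, named after its values were seen. The groups did not overlap, with CD51+ below CD51-, for 40 of 86 members in cortex (16.6% of all genes) and for 28 in hippocampus (16.7% of all genes). For 15 members this held in both regions (8.48% of all genes). No member had CD51+ above CD51- without overlap in either region, where 15.1% of all genes did in cortex, 10.5% in hippocampus and 4.69% in both.

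By the quasi-likelihood test of edgeR with Benjamini-Hochberg adjustment over 12613 genes, 4 members fell in cortex (Rps3a1, Rpl10, Rps23 and Rps15) and none rose. That is 4.65% of the members, and 6.27% of all tested genes were called lower (5.05% higher) in that comparison, so the share of calls among the members was near that of all genes. None was called in hippocampus in either direction, where 2.7% of all genes were called lower and 0.618% higher. At an unadjusted edgeR p under 0.05, 1 member was lower there and none higher, beside 1674 lower and 733 higher of the 12613 genes. DESeq2 called 1 member lower in hippocampus (9.87% of all genes). Averaged over both regions 6 members fell (Rps3a1, Rpl10, Rps23, Rps29, Rpl26 and Rplp1) and none rose, 6.98% of the members against 13.9% of all genes called lower and 8.87% called higher. DESeq2 called 18 members lower in cortex, 21.4% of those with an adjusted p against 15.5% of all genes, and 22 in the average, 26.2% against 18.9%. So in cortex and in the average the members' share stood below that of all genes by edgeR with TMM factors and above it by DESeq2. In hippocampus it stood below by both tools (1.22% against 9.87% by DESeq2). By limma-voom 10 were called lower in the average, 11.6% against 13.1%. Without cortex CD51+ replicate 3 edgeR called none in cortex (3.4% of all genes lower) and 3 in the average (9.48% of all genes). With plain library totals in place of TMM, a choice made after seeing the data, the average gave 27, 31.4% of the members against 19.1% of all genes, and the median of all tested genes moved by -0.67 as well. Upper-quartile scaling moved that median by 0.23 in hippocampus. Relative to the median of all genes, the members' median was -1.198 in cortex and -0.565 in hippocampus, and it was -1.239 to -1.089 and -0.585 to -0.565 over the 4 scalings. The number of negative members ran from 76 to 84 in cortex over these scalings, and from 63 (upper quartile) to 83 (plain totals) in hippocampus.

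Both subunits had negative medians, and the difference between them was not tested. Among the 51 tested large subunit genes the median log2 fold change was -1.26 in cortex and -0.79 in hippocampus, and among the 35 small subunit genes it was -1.14 and -0.85. Large subunit genes gave 1 of the 4 calls in cortex and small subunit genes the other 3. In the average each subunit gave 3 of the 6 calls. The 37 members with a mean of at least 50 CPM, a bound set after values were seen, were negative without exception in cortex and in 34 cases in hippocampus. Across the 86 members the fold changes of the 2 regions were only weakly related (Pearson r = 0.15, Spearman rho = 0.16). The comparisons use different libraries, genes are not independent replicates, and no test is given for this.

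**Figure D3:**
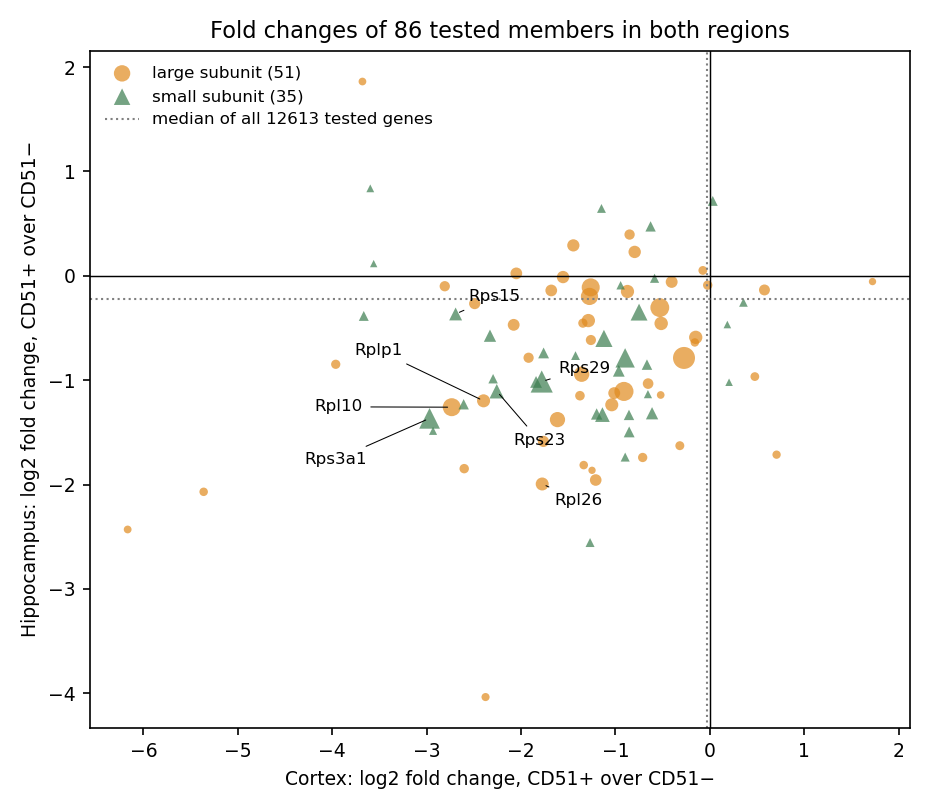
Log2 fold change of CD51+ over CD51- in cortex (x axis) and hippocampus (y axis) for the 86 tested members, circles for large and triangles for small subunit genes, with larger symbols for higher mean CPM. Dotted lines mark the medians of all 12613 tested genes (-0.03 and -0.22), and the 7 labelled genes passed the test in cortex or in the average; 68 members are negative on both axes.

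Rps3a1 (chromosome 3, 86137940 to 86142702, minus strand, mm10), a protein of the small subunit platform near the mRNA exit, had the smallest p of the members in cortex and in the average. Its CPM was 57.1, 114.4 and 40.59 in cortex CD51+ and 330.8, 1052 and 277.9 in cortex CD51-. For hippocampus it was 93.37, 161.5 and 50.59 with label CD51+, against 243.8, 343.6 and 200.3 with label CD51-. The groups did not overlap in either region, and cortex CD51- replicate 2 stood far above all other libraries. The edgeR log2 fold change was -2.97 ± 0.713 (SE) in cortex (adjusted p = 0.00925), -1.37 ± 0.674 in hippocampus (adjusted p = 0.274) and -2.17 ± 0.489 in the average (adjusted p = 0.00313). The cortex call was lost without CD51- replicate 2 (-2.12, adjusted p = 0.0714 by edgeR) and without CD51+ replicate 3 (-2.73, adjusted p = 0.0507), and the average call held without any one library. Of the 100-base windows of Rps3a1, 45.3% also lie in other genes, most of them in Rps3a2.

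Rpl10 (chromosome X, 74270812 to 74273135, plus strand), which joins the large subunit late in its assembly and sits near the peptidyl transferase centre, had 60.29, 61.05 and 6.494 CPM in cortex CD51+ and 532.3, 147.3 and 170.8 CPM in cortex CD51-. The hippocampus libraries had 61.02, 118.7 and 164.5 CPM (CD51+) and 270.3, 243.7 and 310.2 CPM (CD51-). CD51+ was below CD51- without overlap in both regions. The edgeR log2 fold change was -2.73 ± 0.80 (SE) in cortex (adjusted p = 0.0304) and -2.0 ± 0.55 in the average (adjusted p = 0.0124). The cortex call was lost without CD51+ replicate 3, the library at 6.494 CPM (-2.15, edgeR adjusted p = 0.106), and without CD51- replicate 1, the library at 532.3 CPM (-1.89, adjusted p = 0.148). With only the cortex libraries in the fit it was lost as well (-2.81, edgeR adjusted p = 0.0573).

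Rps23 (chromosome 13, 90922958 to 90924950, plus strand), a protein of the decoding centre, varied little within cortex CD51+. It had 40.14, 41.94 and 33.28 CPM in cortex CD51+ and 211.2, 132.9 and 207 CPM in cortex CD51-. Hippocampus values were 45.88, 72.05 and 66.84 CPM (CD51+) and 144.9, 174.1 and 78.78 CPM (CD51-), again without overlap. Its log2 fold change by edgeR was -2.26 ± 0.711 (SE) in cortex (adjusted p = 0.0421) and -1.68 ± 0.493 in the average (adjusted p = 0.0177). The cortex adjusted p was 0.0535 to 0.131 when any one of the 12 libraries was left out, above 0.05 each time. The average call was lost without hippocampus CD51+ replicate 1 (edgeR adjusted p = 0.0605) or hippocampus CD51- replicate 2 (edgeR adjusted p = 0.0575).

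Rps15 (chromosome 10, 80292453 to 80294114, plus strand), a protein of the small subunit head, passed the test in cortex and in no other comparison. It had 26.53, 30.65 and 13.6 CPM in cortex CD51+ and 147.5, 188.7 and 121.5 CPM in cortex CD51-, without overlap. For hippocampus the values were 19.73, 41.59 and 103.9 CPM (CD51+) and 81.46, 51.45 and 79.96 CPM (CD51-), and the groups overlapped. The edgeR log2 fold change was -2.69 ± 0.848 (SE) in cortex (adjusted p = 0.0422) and -0.37 ± 0.797 in hippocampus (adjusted p = 0.879). The test of the difference between the regions gave 2.33 ± 1.14 (edgeR adjusted p = 0.406). The cortex call was lost in 10 of the 12 fits that left out a library, the exceptions being those without cortex CD51- replicate 3 and without hippocampus CD51+ replicate 1, and the highest edgeR adjusted p was 0.138 without cortex CD51+ replicate 3. In the average Rps15 missed the threshold at -1.53 ± 0.576 (SE, edgeR adjusted p = 0.0582), and it passed without hippocampus CD51+ replicate 3 (-1.95, adjusted p = 0.0477). It also passed there by DESeq2 (adjusted p = 0.0135), by limma-voom (0.0394), and in edgeR with RLE factors (0.0478), without mitochondrial genes (0.0441) and with plain totals (0.0129).

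Rps29 (chromosome 12, 69157722 to 69159186, minus strand) was the highest member both by CPM and per length. It had 78.59, 210.3 and 94.97 CPM in cortex CD51+ and 379.7, 363.2 and 575.6 CPM in cortex CD51-. The hippocampus libraries had 134.7, 282.7 and 167.9 CPM (CD51+) and 370.9, 514.9 and 295.7 CPM (CD51-). Neither pair of groups overlapped. By edgeR the average log2 fold change was -1.40 ± 0.423 (SE, adjusted p = 0.0207), and in cortex alone it was -1.78 ± 0.604 (adjusted p = 0.0569). The average call was lost without cortex CD51+ replicate 1 or 3, hippocampus CD51+ replicate 1 or 3, or hippocampus CD51- replicate 2, with adjusted p-values of 0.0569 to 0.0627 in these 5 fits.

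Rplp1 (chromosome 9, 61913284 to 61914542, minus strand), an acidic protein of the stalk that recruits translation factors to the large subunit, had 3.862, 27.96 and 21.31 CPM in cortex CD51+ and 76.61, 108.3 and 95.11 CPM in cortex CD51-. Hippocampus values were 20.19, 70.7 and 90.63 CPM (CD51+) and 90.99, 213.6 and 112.2 CPM (CD51-). The hippocampus groups were separated by less than 1 CPM. Rpl26 (chromosome 11, 68901583 to 68906989, plus strand), which lies close to the exit tunnel, had 23.17, 74.38 and 27.19 CPM in cortex CD51+ and 79.74, 277 and 70.46 CPM in cortex CD51-, with overlap. Its hippocampus values were 10.78, 27.5 and 35.35 CPM (CD51+) and 96.41, 142.3 and 55.15 CPM (CD51-), without overlap. The average log2 fold change by edgeR was -1.80 ± 0.613 (SE, adjusted p = 0.0371) for Rplp1 and -1.89 ± 0.615 (adjusted p = 0.0297) for Rpl26. The call was lost in 8 of 12 fits without one library for Rplp1 (highest edgeR adjusted p = 0.117, without hippocampus CD51- replicate 2). For Rpl26 it was lost in 7 of 12 (highest edgeR adjusted p = 0.116, without cortex CD51- replicate 2, the library at 277 CPM).

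**Figure D4:**
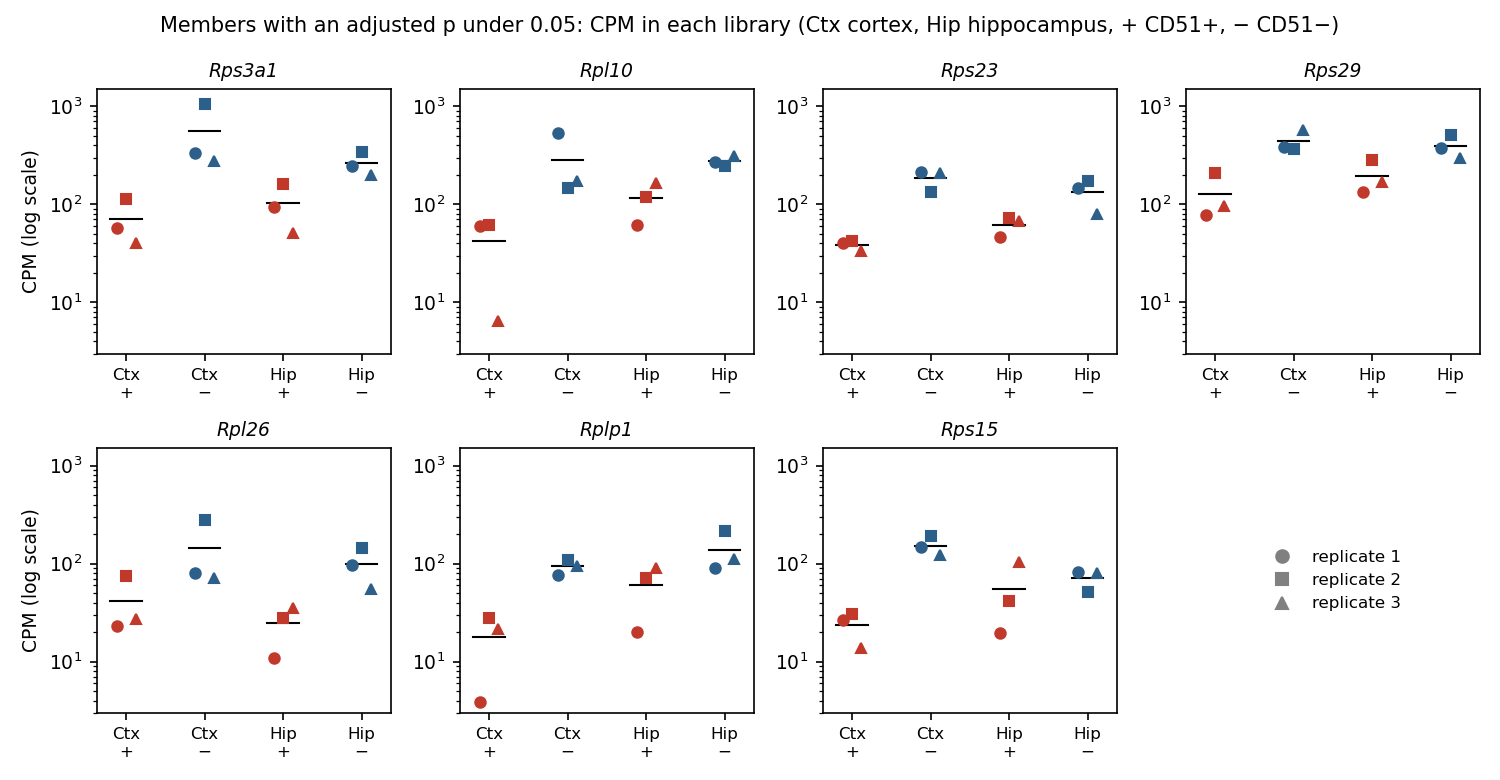
CPM on a log scale (y axis) of the 7 members with an adjusted p under 0.05 in cortex or in the average, by group (x axis); points are libraries, with the symbol giving the replicate number, and lines are means of 3 libraries. In cortex the CD51+ points lie below all CD51- points for every gene but Rpl26, and in hippocampus for every gene but Rps15.

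The most abundant members that did not pass the test showed smaller differences. Rpl4 had 148.3, 416.8 and 164.4 CPM in cortex CD51+ and 406.5, 293.8 and 181 CPM in cortex CD51-, and the groups overlapped fully. Its average log2 fold change by edgeR was -0.53 ± 0.433 (SE, adjusted p = 0.414). For Rpl7a this value was -0.42 ± 0.437 and for Rpl31 -0.69 ± 0.463 (edgeR adjusted p = 0.543 and 0.309). Rps25, a small subunit protein that several viral RNAs need for translation, had 169.9, 103.4 and 209 CPM in cortex CD51+ and 282.5, 304.7 and 310.6 CPM in cortex CD51-. Its groups did not overlap in either region, and in the average it differed by -0.84 ± 0.411 on the log2 scale (SE, edgeR adjusted p = 0.146). Rpsa, also known as the laminin receptor, had 105.6, 86.05 and 107.8 CPM in cortex CD51+ and 247, 218 and 186.4 CPM in cortex CD51-, with -0.86 ± 0.453 in the average (edgeR adjusted p = 0.181).

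One member varied little within 3 of the 4 groups. Rpl11, which with Rpl5 binds Mdm2 when ribosome assembly is disturbed and was picked after its values were seen, had 82.79, 84.26 and 84.42 CPM in cortex CD51+ and 91.89, 95.86 and 91.03 CPM in cortex CD51-. The hippocampus libraries had 47.94, 43.33 and 89.79 CPM (CD51+) and 96.41, 88.88 and 87.21 CPM (CD51-). Its coefficient of variation was the lowest of all tested members in cortex CD51+ (0.01), cortex CD51- (0.03) and hippocampus CD51- (0.05). In hippocampus CD51+ it was 0.424, close to the median of 0.45 over members with at least 50 CPM. Its cortex groups did not overlap although they differed by -0.15 ± 0.718 on the log2 scale (SE, edgeR adjusted p = 0.924). Over the 37 members with at least 50 CPM, the median coefficient of variation was 0.61 in cortex CD51+ and 0.45 in hippocampus CD51+, and 0.27 and 0.29 in the CD51- groups. The spread among libraries labelled CD51+ was thus wider in both regions, and this was not tested. Cortex CD51+ replicate 3 held the lowest value of 36 of the 86 tested members and the highest of 4.

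Set against length, the members spanned a wide range. Levels per length were computed as TPM, counts per exon base scaled to a common total, among genes not encoded in mitochondria, from the exon length of each gene. The highest means over 12 libraries were 2795 TPM for Rps29, 1665 for Rps3a1, 1160 for Rpl36 and 1047 for Rplp1, and the median over the 86 tested members was 125. By group Rps29 stood at 1084 ± 639.5 TPM in cortex CD51+, 4112 ± 1067 in cortex CD51-, 1900 ± 603.3 in hippocampus CD51+ and 4082 ± 1009 in hippocampus CD51- (SD, n = 3). Rps3a1 stood at 434.7 ± 254.3, 3584 ± 2589, 712.3 ± 357.2 and 1930 ± 467.7 TPM in the same order. Standard ribosomal proteins with low levels, picked after their values were seen, were Rps10 at 10.29 TPM, Rps28 at 11.04, Rps14 at 17.24 and Rpl13a at 18. Each ribosome needs one copy of these proteins too. Other annotated genes overlap 28.7% of the exon bases of Rps10 and 35.4% of those of Rpl13a, and pairs that overlap several genes were not assigned, whereas Rps14 has no such overlap and Rps28 has 5.1%. Exon lengths cover all annotated transcripts of a gene, so genes with long rare exons read low on this scale.

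**Figure D5:**
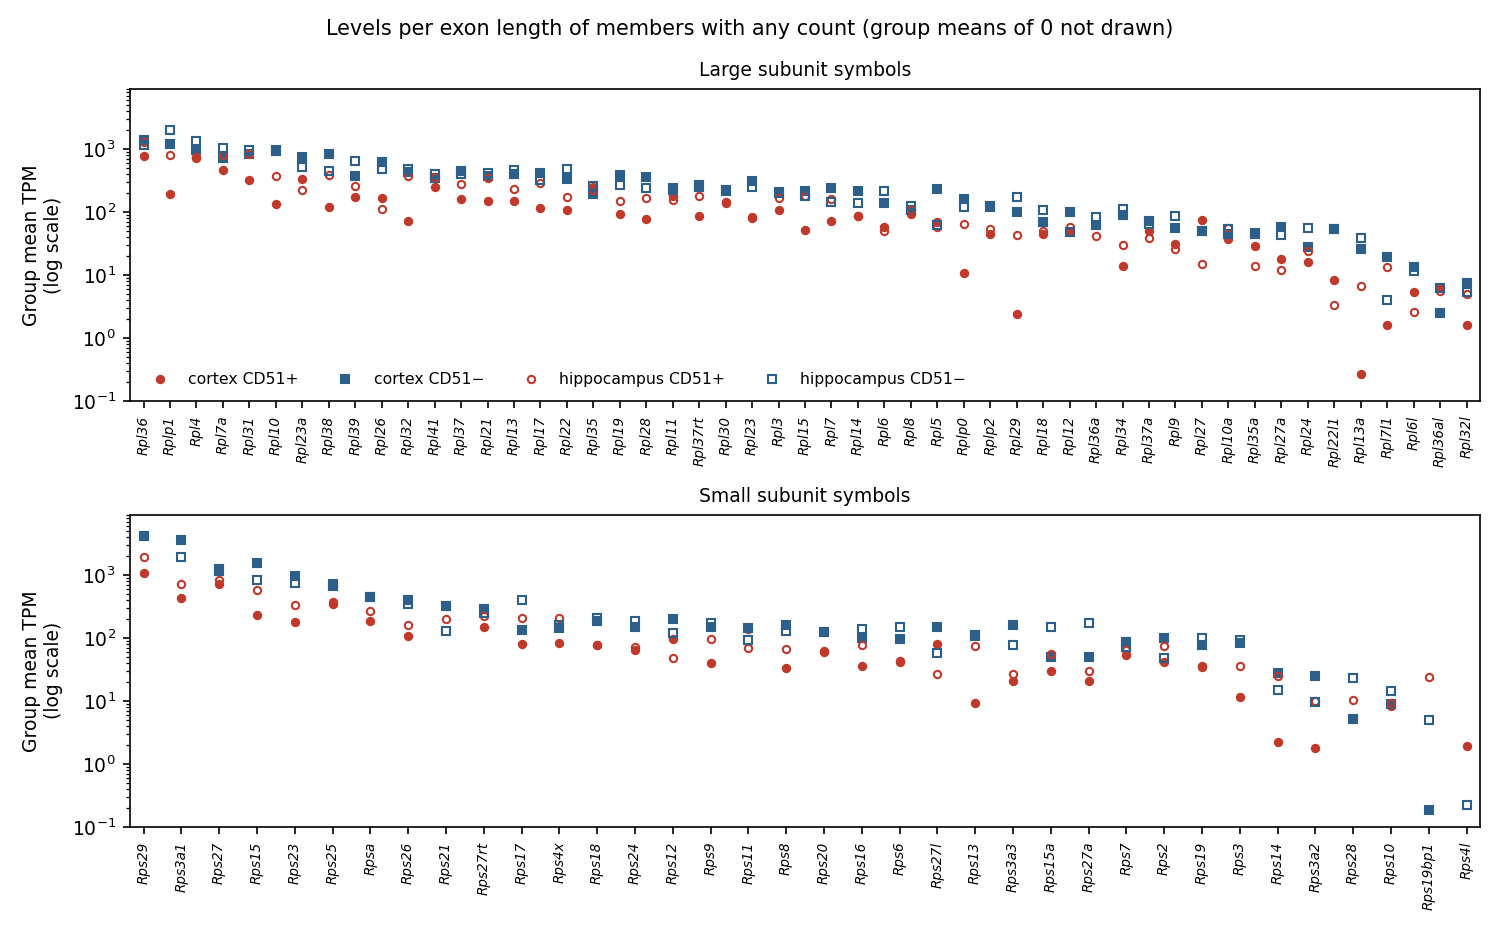
Group mean TPM on a log scale (y axis) of the members with any count that are reported here, large subunit symbols above and small subunit symbols below, ordered on the x axis by the mean over 12 libraries. Filled symbols are cortex and open symbols hippocampus, red circles CD51+ and blue squares CD51-; levels run from 2795 TPM for Rps29 down to under 1 TPM for Rps4l, and red symbols lie below blue ones for most genes.

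Rpl13a stood apart in another way. It had 26.72 CPM in cortex CD51- replicate 2, 35.76 in hippocampus CD51- replicate 2 and 6.306 in hippocampus CD51+ replicate 2, and at most 0.335 CPM in each of the other 9 libraries. These are counts of 223, 385 and 47, and of 3 or fewer elsewhere. The high libraries all carry replicate number 2, and no group as a whole was high.

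Most paralogs, some of which replace a standard ribosomal protein in certain tissues, had few counts or none. Per length Rps27rt, most of which is shared with Rps27, stood at 228.6 TPM and Rps27l at 78.1, and Rpl22l1, Rpl7l1, Rpl36al and Rps4l at 30 TPM or less. Rpl3l, Rpl10l and Rpl39l, known mainly from muscle or testis, had no count in any library. A count of 0 allows up to 3 counts, which is 0.234 to 0.689 CPM of the plain library total and covers counting error only. Rps4l had 7 counts in cortex CD51+ replicate 2 and 1 in hippocampus CD51- replicate 1. Rpl22l1 had 0.6717, 3.847 and 4.87 CPM in cortex CD51+ and 17.13, 16.42 and 15.32 CPM in cortex CD51-. Hippocampus values were 1.147, 0 and 1.675 CPM (CD51+) and 1.807, 31.95 and 12.95 CPM (CD51-). The groups did not overlap in either region, and the average log2 fold change of -3.21 ± 1.38 did not pass the test (SE, edgeR adjusted p = 0.0982). It passed by DESeq2 (adjusted p = 0.00582), by limma-voom (0.0381) and in edgeR with plain totals (0.0428). Its close relative Rpl22, which represses Rpl22l1 mRNA, had an average value of -1.50 ± 0.55 (edgeR adjusted p = 0.0523), so both members of the pair were on the same side of 0. Rps27l, Rps27rt, Rpl7l1 and Rpl36al had average log2 fold changes of -0.89, -0.52, -0.91 and 0.83, with edgeR adjusted p-values of 0.672 to 0.784. The signs of Rps27l, Rpl7l1 and Rpl36al turned when hippocampus CD51- replicate 2 (0.39), cortex CD51- replicate 2 (0.18) or cortex CD51+ replicate 3 (-0.08) was left out, in that order.

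Between the regions the members did not differ by the test. None was called between hippocampus and cortex, averaged over the labels, in either direction (edgeR, 0.19% of all genes called). The median log2 fold change was 0.10 for the members and 0.16 for all tested genes. None was called for a CD51 difference that itself differed between regions, and no other gene was either (0% of all genes). The median of that difference (hippocampus minus cortex) was 0.47 for the members and -0.23 for all genes, and it was 0.09 without hippocampus CD51+ replicate 3.

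Genes that work beside the ribosome were read in the same fit. Of 16 other mRNAs known for a TOP motif, 5 fell and none rose in the average, with a median log2 fold change of -1.09. Several of these 16 also stand in the factor lists that follow. Eef1a1, which brings aminoacyl-tRNA to the ribosome, changed by -1.48 ± 0.333 (SE, edgeR adjusted p = 0.00308), and Pabpc1, the cytoplasmic poly(A)-binding protein, by -1.52 ± 0.398 (edgeR adjusted p = 0.00923). Of 9 genes listed with the elongation factors 2 fell and none rose, with a median of -0.25. Of 37 initiation factor genes 4 fell and none rose, with a median of -0.32. Of 44 ribosome assembly genes 5 fell and none rose, with a median of -0.74, among them Ncl, the nucleolar protein nucleolin, at -1.85 ± 0.382 (edgeR adjusted p = 0.00143). Of 22 genes that control translation 3 fell and 1 rose. Atf4, the transcription factor of the integrated stress response, changed by -3.71 ± 0.719 (edgeR adjusted p = 0.000802). These shares stand beside 13.9% of all genes called lower and 8.87% called higher in the average. Among the called genes of smallest p in these lists, not all calls were stable. Without 1 library at a time Eif2b3 lost its call in 8 of 12 fits, Nop2 and Eef2k in 7, Npm1 in 5 and Eif5 in 1. Eef1a1, Pabpc1, Ncl, Atf4, Myc and Mlst8 kept theirs in all 12.

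Genes for the mitochondrial ribosome had positive medians. Of 45 tested mitochondrial large subunit genes 3 rose and none fell in the average, with a median of 0.62. Of 26 mitochondrial small subunit genes 2 rose and 1 fell, with a median of 1.21. These few calls stand beside the same 8.87% and 13.9% of all genes, and most were not stable. Without 1 library at a time Mrpl45 lost its call in 10 of 12 fits, Mrps14 in 9, Mrps26, the one that fell, in 8, Mrpl51 in 6 and Mrps22 in 2, and Mrpl33 kept it in all 12. Of the 46 tested rows with pseudogene symbols none was called by edgeR in either direction. At an unadjusted edgeR p under 0.05 in the average, 2 were lower and none higher. Of all 12613 genes, 2532 were lower and 1910 higher by that bound. Among the 46 rows, 45 were negative in the average, and the median of all 46 was -1.002. That median lay near the -1.01 of the members, in rows that share sequence with them.

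The start of each gene was read for the pyrimidine run. RefSeq promoters (GRCm38.p6) were found for 68 of the 93 members. A run was a C followed by C or T only, at least 5 bases in all, overlapping the 10 bases on either side of the annotated start. Such a run was found on the coding strand for 66.2% of the 68 members and 38.7% of all 27025 genes with a promoter. A run of at least 8 bases was found for 44.1% and 12.5%. The letters CCGGAAG, the core that ETS factors bind, lay within 250 bases before to 50 after the start on either strand for 38.2% of members and 9.9% of all genes. For TATAAA these shares were 11.8% and 15.7%, and for AAGATGGC, a YY1 core, 8.8% and 3.2%. The windows below show 15 bases before the annotated start and the 15 from it on, with the run in capitals, for 2 abundant members with a run, and for the 5 called members with a promoter. In Rpl4 the run begins upstream of the window:
Rpl4 (chr9:64173372-64173401, plus strand): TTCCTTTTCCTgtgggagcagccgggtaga
Rpl7a (chr2:26910792-26910821, plus strand): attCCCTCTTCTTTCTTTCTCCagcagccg
Rps23 (chr13:90923107-90923136, plus strand): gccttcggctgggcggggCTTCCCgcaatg
Rps3a1 (chr3:86142654-86142683, minus strand): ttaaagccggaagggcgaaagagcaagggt
Rpl26 (chr11:68901551-68901580, plus strand): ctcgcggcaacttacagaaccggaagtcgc
Rpl10 (chrX:74270801-74270830, plus strand): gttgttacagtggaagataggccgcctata
Rps15 (chr10:80292416-80292445, plus strand): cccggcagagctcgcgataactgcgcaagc

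In Rps3a1 and Rpl26 the ETS core lies inside the window in lower case, and in Rpl10 and Rps15 it was found nowhere in the promoter. A match describes these letters only, and an annotated start can lie some bases from the one in use. Across 41 tested members with a run the median log2 fold change in the average was -1.09, and across 22 with a promoter but no run it was -0.88. In cortex these medians were -1.14 and -1.32, so the order of the groups was not the same in every comparison. Of the called members with a promoter, Rps23 had a run, and Rps3a1, Rpl10, Rps15 and Rpl26 had none.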

How the data were processed

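Per the file headers, the deposited counts are read pairs assigned to genes by featureCounts 2.0.4 over the exons of GENCODE M25, from primary alignments, without regard to strand and with no pair given to more than 1 gene. The submitters' processing notes name STAR, mm10 and DESeq2 1.40.2. Without strand, antisense neighbours cannot be told apart. Symbols and transcripts came from GENCODE vM21, which matched 55141 of 55401 gene IDs. The members, gene lists and tests were chosen with earlier results of these data known.

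Counts of all 12 libraries were fitted in edgeR 4.0.16 (R 4.3.3) with 4 group levels, TMM factors, its expression filter (minimum count 10, minimum total 15) and the quasi-likelihood F test, with Benjamini-Hochberg adjustment over 12613 genes at 0.05. Standard errors are the log2 fold change over the root of F. The script was tested on simulated data. CPM (on the TMM-scaled library size) and TPM (per exon length, mitochondrial genes left out) were computed from the deposited counts, and sums over members have no test. A member was named if it was called in any comparison, was among the 4 most abundant or the 3 smallest p-values of its subunit, or is a paralog with a count; other choices are marked, and some items are not reported here. DESeq2 1.42.0, limma-voom (limma 3.58.1), other scalings and filters, a robust fit, a block on replicate number, single-region fits and each library left out were alternatives. Plain library totals in edgeR and other sets of members were added after seeing the data.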

Additional observations from a re-analysis of the deposited data

How the results depend on the processing

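The median log2 fold change of the members stayed negative in cortex, hippocampus and the average under every alternative run, while the number of members called lower by edgeR (4 in cortex, 0 in hippocampus, 6 in the average) moved with the test. In cortex it was 18 with DESeq2 (21.4% of members, 15.5% of all genes) and 2 without the low-count filter (2.25%, 3.89%). It was 1 with only the cortex libraries in the fit (1.22%, 8.08%). Rpl10, Rps15 and Rps23 lost their calls there (edgeR adjusted p = 0.0573, 0.0573 and 0.078). Among the 28 tested members with under 10% shared windows the main fit called 1 lower, beside 6.27% of all genes. In hippocampus DESeq2 called 1 (1.22%, 9.87%). In the average the number was 22 with DESeq2 (26.2%, 18.9%), 10 with limma-voom (11.6%, 13.1%) and 27 with plain library totals (31.4%, 19.1%). Among the 28 members with under 10% shared windows it was 0 in the main fit, beside 13.9% of all genes. Leaving out 1 library at a time gave 0 to 3 in cortex and 2 to 7 in the average. Of all genes, 3.32% to 5.93% (cortex) and 8.73% to 13.3% (average) were called lower in these fits. The count of members was 0 in cortex and 3 in the average without cortex CD51+ replicate 3 (3.4% and 9.48% of all genes). It was 1 in cortex without cortex CD51- replicate 1 or 2 (4.68% and 4.16%). Without hippocampus CD51+ replicate 1 (9.27%) or hippocampus CD51- replicate 2 (11.6%) it was 2 in the average. The cause was not tested. With plain library totals the medians were -1.79 in cortex, -1.509 in hippocampus and -1.663 in the average, and the log2 ratios of the sums were -1.7 and -1.389 (large subunit, cortex and hippocampus) and -2.079 and -1.58 (small subunit), all further from 0, as was the median of all genes. Without 1 library the members' median of the CD51 difference in hippocampus minus that in cortex ran from 0.089 to 0.761. These ends were reached without hippocampus CD51+ replicate 3 and without hippocampus CD51- replicate 2. Low-count paralogs changed sign in the average: Rpl36al ran from -0.07559 to 1.432 without 1 library and was -0.06306 with plain totals, Rpl7l1 ran from -1.723 to 0.1755, and Rps27l from -1.224 to 0.3859. Deviations of same-numbered libraries were not correlated over all tested genes (r from -0.05 to 0.026 over 18 pairs, 0 over 0.1). With so wide a spread between libraries, such values cannot show whether same-numbered libraries came from the same animals. Replicate numbers were not taken as pairs, and a fit with them as a block called 2 members lower in cortex (2.33%, against 5.55% of all genes). A biological coefficient of variation of 1.281 limits what 3 libraries a group can show.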
